A study of Mus musculus with 7 samples.

Results

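The genes examined were the 7 caveolae genes Cav1, Cav2, Cavin1, Cavin2, Cavin3, Ehd2 and Pacsin2, chosen by name from the 55484 genes of the count table. All 7 had enough counts to be tested, among 16580 genes tested. They were measured by RNA-seq in 4 libraries of mouse embryonic fibroblasts (MEFs, fibroblasts grown from mouse embryos) and 3 libraries of mouse embryonic stem cells (mESCs, pluripotent cells of the early embryo). Both cell types were untreated and of C57/Bl6 background. Age, passage, feeder cells and any sorting of the cells used for RNA were not given in the sources used here, and the extraction text in the labels speaks of blood stem cells rather than of these cells. The study's legends call its RNA-seq samples biological replicates, without saying whether they came from separate cultures or animals or which of the MEF libraries are meant. The p-values measure the spread between these libraries.

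Caveolae are small flask-shaped pits of the plasma membrane, abundant in fibroblasts, fat, muscle and endothelial cells. Caveolins, of which Cav1 is the main one outside striated muscle, insert into the inner leaflet of the membrane, and cavins form a coat around the caveolin domain. EHD2, an ATPase at the neck of the pit, holds caveolae at the surface, and PACSIN2, an F-BAR protein, bends membrane there and also acts at other membranes. When tension in the membrane rises, caveolae flatten and release cavins.

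The libraries, named O1 to O4 (MEFs) and Y1 to Y3 (mESCs) after the last part of their column names, held 6528643 to 11441278 counts on genes. The first part of the name was MEF1 in every MEF column and mESC1 in every mESC column. Whether that shared number means a shared source of cells is not given in the sources used here. Levels are given as CPM, counts scaled to a common library size by edgeR's TMM method, and 3 counts in a library, taken as its floor, corresponded to 0.288 to 0.477 CPM. This floor covers counting error only. The cell labels were checked on marker genes. All 16 fibroblast markers were higher and all 10 pluripotency markers were lower in MEFs by edgeR's test, with Col1a1 at 9420 to 17900 CPM in MEFs and Pou5f1 at 0.305 to 1.15 CPM. Of 8 smooth muscle markers, 7 were higher in MEFs, and their summed level was 6110 to 7630 CPM against 62.4 to 87.8 CPM in mESCs. Of 10 endothelial markers 6 were tested, with 1 higher (Erg) and 2 lower (Pecam1 and Vwf) in MEFs. Their summed level was 28.1 to 40.9 CPM in MEFs and 55.9 to 86.5 CPM in mESCs, where Pecam1 (mean 29.9 CPM) and Vwf (mean 23.4 CPM) held most of it. Erg had 9 to 24 counts in a MEF library and 0 to 2 in an mESC library, and Cdh5, not tested, had 0 to 20 and 0 to 3. Of 8 adipocyte markers 4 were tested, with 1 higher (Fabp4, 24 to 101 counts against 0 to 5) and 1 lower (Retn), and their summed level was 128 to 144 CPM in MEFs and 113 to 145 CPM in mESCs. Lipe, which was not called, held most of that sum (mean 117.2 CPM in MEFs and 102.1 CPM in mESCs). Adipoq was at 0 in every MEF library. Erg, Pecam1, Vwf, Fabp4, Retn and Lipe were named after their values were seen, and the part of such cells in the levels below was not tested. Of 7 skeletal muscle markers tested, 2 were higher and 1 was lower in MEFs, and of 3 blood markers tested 1 was higher and 1 lower. In bulk RNA, fewer cells of a type and less RNA per cell cannot be told apart.

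The genes lie on 5 mouse chromosomes (GRCm38, GENCODE M21), and all are protein coding. Cav2 (chr6:17281185-17289115, plus strand) and Cav1 (chr6:17306335-17341452, plus strand) are neighbours, with 17.2 kb between the end of Cav2 and the start of Cav1. Cavin1 is at chr11:100956733-100970887 (minus strand) and Cavin2 at chr1:51289126-51302960 (plus strand). Cavin3 (chr7:105480083-105482300) and Ehd2 (chr7:15946958-15967567), both on the minus strand, share chromosome 7, and Pacsin2 is at chr15:83375607-83464606 (minus strand). Exons of Cavin3 overlap the antisense gene Gm45667. The strand setting of the counting is not given in the sources used here, so reads of both could not be told apart, and Gm45667 itself held 0 to 2 counts in a library.

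Promoter windows of 300 bases, 250 before to 50 after the start site, were taken from RefSeq (GRCm38.p6) for 6 of the 7 genes; Cavin3 had no entry. Stretches of 30 bases before the RefSeq start site are shown, and each holds 1 motif match in capitals where there was one. Coordinates follow each name. For Cavin1 the RefSeq start lies 270 bases inside the GENCODE gene, so its stretch falls within the gene as annotated there, and for Ehd2 the starts differ by 32 bases.
Cav1 TATA box, chr6:17306102-17306131, plus strand: cctctctgtaggTTTATAgctgggaaaacg
Cav1 GC box, chr6:17306205-17306234, plus strand: cgccggcactccCCGCCCtctgctgccaga
Cav2 AP-1 site, chr6:17281081-17281110, plus strand: caagccaggagaTGACTCAtcgagccggtt
Cavin1 TEAD site, chr11:100970838-100970867, minus strand: tcaCATTCCtctgccccagtcccgctgccg
Cavin2 no match, chr1:51289096-51289125, plus strand: gtaggaaagaaaagccactgcagaaaagaa
Ehd2 GC box, chr7:15967744-15967773, minus strand: gagacaggatccCCGCCCccccccccacgc
Pacsin2 GC box, chr15:83464644-83464673, minus strand: cgctgggccgaaGGGCGGggtctggatgca

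The motifs searched on both strands were the AP-1 site TGANTCA, the TEAD site GGAATG, the GC box GGGCGG, the TATA box TATAAA, the CArG box and the E-box CACGTG. Of all 32851 windows, 7.81% held an AP-1 site, 14.7% a TEAD site, 35.7% a GC box, 13.6% a TATA box, 1.63% a CArG box and 7.15% an E-box. The GC box was the motif held by most of these windows, with 2 matches each in Cav1, Cav2, Ehd2 and Pacsin2 and 1 in Cavin1. The AP-1 match was in Cav2, the TEAD match in Cavin1 and the TATA match in Cav1, 221 bases before the start. The Cavin2 window held none of the 6 motifs. It also had the fewest CpG dinucleotides, 4, against 13 in Cav1, 16 in Cav2, 17 in Cavin1, 18 in Ehd2, 27 in Pacsin2 and a median of 7 over all windows. A match is a description of letters and not of a bound site.

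The comparison between MEFs and mESCs asked how far the transcripts of the caveolar coat and neck differ between a fibroblast and a pluripotent cell. Cav1, Cav2, Cavin1, Cavin2, Cavin3 and Ehd2 were higher in MEFs, by 13 to 158 times, whereas Pacsin2 was not called. In all, 6 of 7 genes passed an adjusted p of 0.05 with higher levels in MEFs, where 25.0% of all genes tested did, and 0 of 7 were lower, where 22.8% of all genes were (quasi-likelihood test of edgeR, Benjamini-Hochberg adjusted over all genes tested). In 6 of 7 every MEF library lay above every mESC library, as in 26.2% of all genes tested, and the same number passed a test against a fold change of 2, as did 13.7% of all genes. The median log2 fold change (MEF minus mESC) of the 7 genes was 5.29, against -0.04 over all genes tested. With scaling by library size alone, that median over all genes was -0.32, and 39.2% instead of 52.3% of all calls were higher in MEFs.

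**Figure D1:**
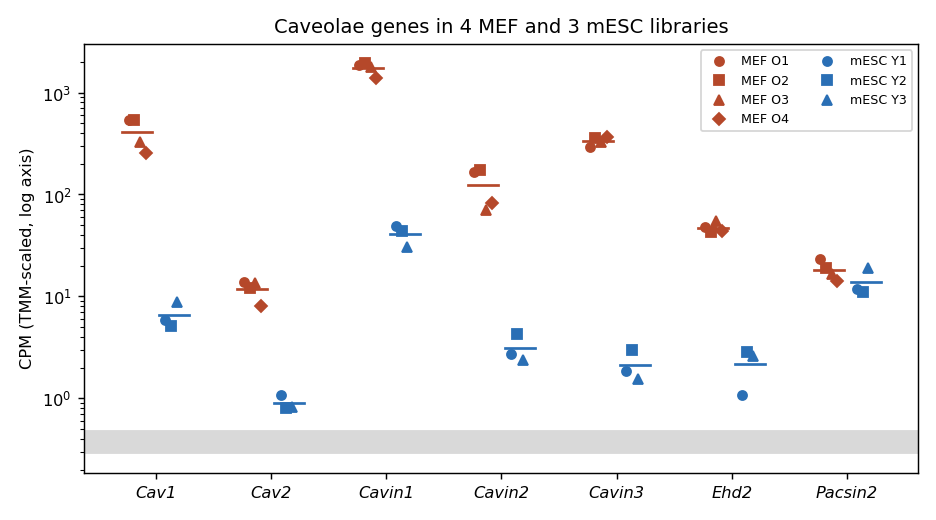
TMM-scaled CPM (log axis) of the 7 caveolae genes in each MEF (red) and mESC (blue) library, with group means as bars and the level of 3 counts in grey. The MEF and mESC libraries overlap for Pacsin2 alone, and Cav2 has the lowest level in both cell types.

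Cav1, the caveolin without which caveolae do not form in non-muscle cells, had 537, 534, 328 and 257 CPM in MEF libraries O1 to O4. In mESC libraries Y1 to Y3 it had 5.85, 5.11 and 8.73 CPM, from 54, 45 and 74 counts. The groups were far apart, and within MEFs O1 and O2 were above O3 and O4. The means were 414 ± 143 CPM (SD, n = 4) and 6.57 ± 1.91 CPM (SD, n = 3), which gave 5.98 as the log2 fold change (SE 0.36, adjusted p = 4.3e-07, edgeR).

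Cav2, which pairs with Cav1 in hetero-oligomers, was the scarcest of the 7 in both cell types. MEF libraries had 13.8, 12.2, 13.4 and 8.11 CPM. The mESC libraries had 1.08, 0.795 and 0.826 CPM, from 10, 7 and 7 counts, which is above the floor of 3 counts but leaves a wide counting error. Its log2 fold change was 3.70 (SE 0.39, adjusted p = 2.15e-05, edgeR), the smallest of the 6 genes called.

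Cavin1, the cavin required for the coat, had the highest level of the 7 genes in every library, by CPM and by CPM per kb of transcript. It had 1850, 1930, 1800 and 1390 CPM in MEFs and 49.5, 43.7 and 30.7 CPM in mESCs. The mean was 1740 ± 244 CPM (SD, n = 4) against 41.3 ± 9.66 CPM (SD, n = 3), and the log2 fold change was 5.40 (SE 0.22, adjusted p = 3.54e-08, edgeR). The level in mESCs was well above the floor, from 260 to 457 counts.

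Cavin2, a cavin that binds phosphatidylserine and shapes the membrane, had 165 and 173 CPM in O1 and O2 and 71.2 and 82.4 CPM in O3 and O4. The mESC libraries had 2.71, 4.32 and 2.36 CPM. The MEF libraries thus formed a higher and a lower pair, and both lay above all mESC libraries. The log2 fold change was 5.29 (SE 0.43, adjusted p = 3.35e-06, edgeR).

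Cavin3, an adaptor of the coat that binds protein kinase C delta, had the widest difference of the 7. MEF libraries had 291, 361, 328 and 367 CPM, the narrowest spread of the 7 genes relative to the mean (337 ± 35.2 CPM, SD, n = 4). The mESC libraries had 1.84, 2.95 and 1.53 CPM, from 17, 26 and 13 counts. The log2 fold change was 7.31 (SE 0.26, adjusted p = 1.91e-08, edgeR), and 0.362% of all genes tested had a larger one.

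Ehd2 had 47.6, 42.5, 55.1 and 44.1 CPM in MEFs and 1.08, 2.84 and 2.60 CPM in mESCs, the latter from 10, 25 and 22 counts. All MEF libraries were above all mESC libraries. The log2 fold change was 4.44 (SE 0.32, adjusted p = 1.58e-06, edgeR).

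Pacsin2 had 23.3, 18.9, 16.5 and 14.2 CPM in MEFs and 11.7, 11.0 and 19.1 CPM in mESCs, so Y3 lay above O2, O3 and O4. Its log2 fold change was 0.39 (SE 0.28), which did not pass the threshold (adjusted p = 0.284, edgeR). The 95% interval ran from -0.23 to 1.01. The neck genes Ehd2 and Pacsin2 therefore stood on different sides of the threshold, and their intervals did not overlap.

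**Figure D2:**
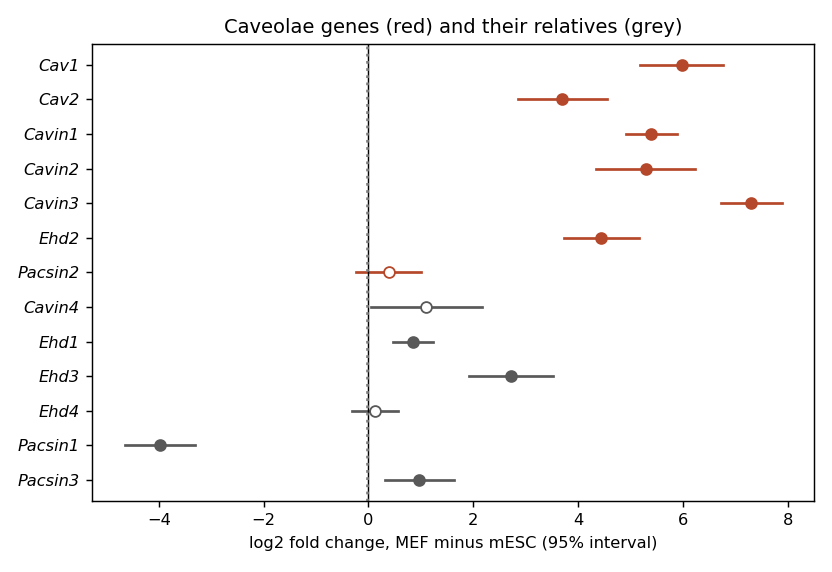
Fitted log2 fold change (MEF minus mESC) with 95% intervals for the 7 caveolae genes (red) and the 6 tested relatives (grey), with intervals not adjusted for the number of genes, where filled points passed an adjusted p of 0.05 and the dotted line is the median of all genes, -0.04. Cavin3 is farthest to the right at 7.31, Pacsin2 crosses 0, and Pacsin1 is at -3.98.

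Levels of different genes were ordered as CPM divided by the length in kb of the longest transcript. The libraries were taken to be made from the 3' end by poly(A) priming, so counts need not scale with length, and the order by CPM alone is given too. The paper's methods do not state this priming, and the extraction text in the labels speaks of blood stem cells. Per kb, the MEF order was Cavin1 (499 CPM per kb), Cavin3 (203), Cav1 (151), Cavin2 (40.3), Ehd2 (9.24), Pacsin2 (4.94) and Cav2 (4.35), in which the libraries of Cavin3 and Cav1, and of Pacsin2 and Cav2, overlapped. By CPM alone, Cav1 stood before Cavin3 in MEFs, again with overlapping libraries, and Pacsin2 and Cav2 no longer overlapped. In mESCs the order per kb was Cavin1 (11.8 CPM per kb), Pacsin2 (3.78), Cav1 (2.39), Cavin3 (1.27), Cavin2 (1.02), Ehd2 (0.425) and Cav2 (0.33). There Pacsin2 overlapped Cav1, Cavin3 overlapped Cavin2 and Ehd2 overlapped Cav2. By CPM alone the mESC order was Cavin1, Pacsin2, Cav1, Cavin2, Ehd2, Cavin3 and Cav2, with Cavin3 at place 6 instead of 4, and the libraries of Cavin2 overlapped those of Ehd2, as did those of Cavin3. Pacsin2 was thus the second gene in mESCs and the sixth in MEFs on both scales.

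The 7 genes together took 0.208 to 0.276% of all counts in MEF libraries and 0.00748 to 0.00831% in mESC libraries. Cavin1 held 62.9 to 68.9% of those counts in MEFs and 46.6 to 67.1% in mESCs. Pacsin2 held 0.614 to 0.796% in MEFs and 15.6 to 29% in mESCs, and Cavin3 held 9.94 to 17.0% and 2.33 to 4.17%.

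**Figure D3:**
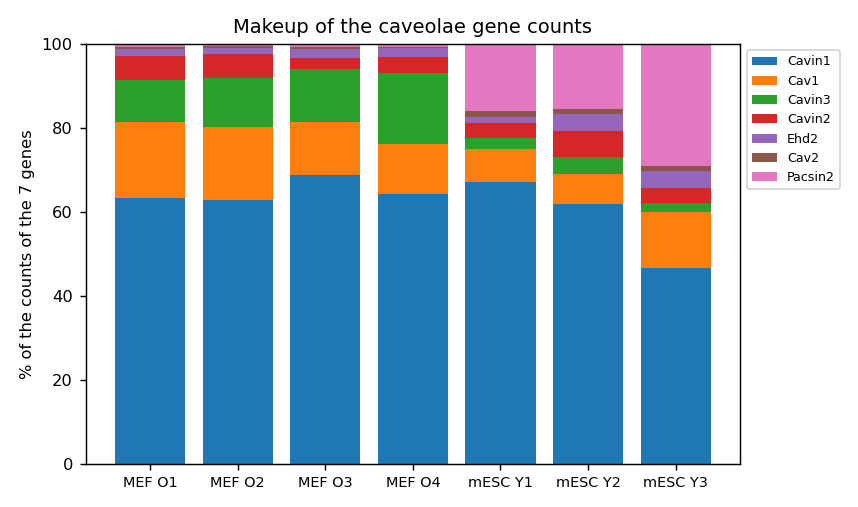
Share of the summed counts of the 7 caveolae genes (%) that each gene held in each library, as stacked bars. Cavin1 takes 46.6 to 68.9% in every library, and Pacsin2 takes 15.6 to 29% in mESCs but under 1% in MEFs.

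Ratios between genes within a library do not depend on scaling between libraries, and 6 pairs were compared. For each 100 counts of Cav1, Cav2 had 2.28 to 4.09 counts in MEFs and 9.46 to 18.5 in mESCs, a log2 difference (MEF minus mESC) of -2.31. For each 100 counts of Cavin1, Cavin3 had 15.7 to 26.5 counts in MEFs and 3.72 to 6.75 in mESCs, a log2 difference of 1.92. Ehd2 had 7.96 to 17.1 counts for each 100 of Cav1 in MEFs and 18.5 to 55.6 in mESCs, a log2 difference of -1.42, and Pacsin2 had 3.54 to 5.5 and 200 to 219 counts, a log2 difference of -5.53. In these 4 pairs the ranges of MEFs and mESCs were separate. None passed the exact two-sided permutation test (p = 0.0571 each, adjusted p = 0.0857 over the 6 pairs), and 0.0571 is the smallest p that 4 against 3 libraries allow when the smaller tail is doubled. The other two-sided form, on the absolute difference, gave an exact p of 0.0286 for each of the 4 (adjusted p = 0.0429). That form was added after both values had been seen, and the call on these ratios depends on it.

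The other 2 pairs overlapped. Cavin1 had 344 to 549 counts for each 100 of Cav1 in MEFs and 351 to 856 in mESCs, a log2 difference of -0.52 (exact permutation p = 0.286). Cavin2 had 3.95 to 8.95 counts for each 100 of Cavin1 in MEFs and 5.47 to 9.87 in mESCs, a log2 difference of -0.21 (exact permutation p = 0.686), which turned to 0.04 without O3.

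The mean level left in mESCs was 0.626% of the MEF level for Cavin3, 1.58% for Cav1, 2.37% for Cavin1, 2.54% for Cavin2, 4.59% for Ehd2, 7.59% for Cav2 and 76.5% for Pacsin2. The 16 fibroblast markers ranged from 0.412 to 41.0% with a median of 1.08%. Cavin3 was therefore below 10 of the 16 markers and Cav1 below 6. Cavin1 and Cavin2 were each above 12 of them, Ehd2 above 13, Cav2 above 14 and Pacsin2 above all 16. The upper end of the marker range was Fn1. In the reverse direction, pluripotency markers in MEFs were at 0.398 to 2.0% of their mESC level. Whether other cells in the mESC cultures contributed to the remaining counts was not tested.

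**Figure D4:**
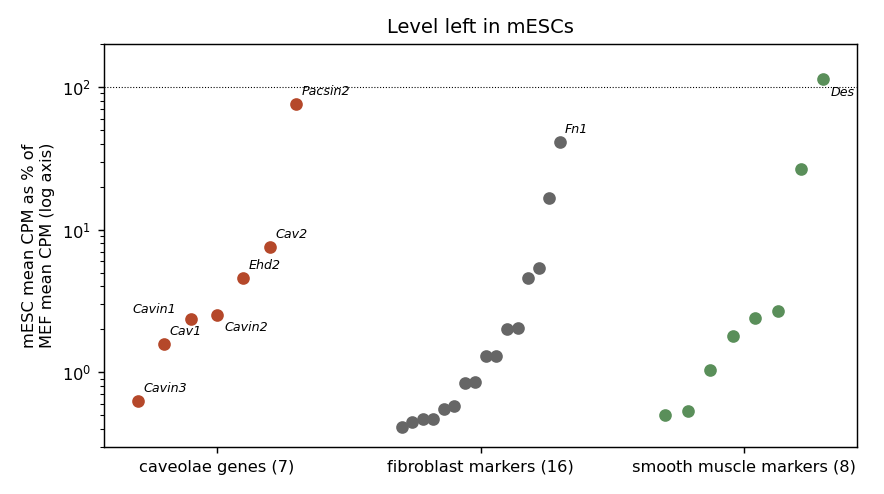
Mean mESC level as a percent of the mean MEF level (log axis) for each caveolae gene, fibroblast marker and smooth muscle marker, with the dotted line at equal levels. The 6 genes called lie between 0.626 and 7.59%, inside the range of the fibroblast markers (0.412 to 41.0%). Fn1 is the upper end of that range, Cav2 is above 14 of the 16 markers, and Pacsin2 is at 76.5%.

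Among the 4 MEF libraries the genes did not vary alike. Relative to the mean of the MEF libraries on the log2 scale, Cavin2 stood at 0.54 and 0.61 in O1 and O2 and at -0.68 and -0.47 in O3 and O4. Cav1 stood at 0.45, 0.44, -0.27 and -0.62 in the same order, whereas Cavin3 stood at -0.20, 0.11, -0.03 and 0.13. Pacsin2 was also above its mean in O1 and O2 and below it in O3 and O4. The summed level of the Y-linked genes Ddx3y, Eif2s3y and Kdm5d divided the MEF libraries in the same way. It was 2.11 and 0.61 CPM in O1 and O2 and 90.6 and 88.4 CPM in O3 and O4. In mESC libraries Y1 to Y3 it was 1.73, 1.82 and 35.9 CPM. There Y3 had the highest Cav1 (8.73 CPM) and Pacsin2 (19.1 CPM) and the lowest Cavin1 (30.7 CPM), Cavin2 (2.36 CPM) and Cavin3 (1.53 CPM). Cav1 and Pacsin2 were thus lower in the MEF libraries with the higher Y-linked level (O3 and O4) but higher in the mESC library with it (Y3). Cavin2 was lower in both. The summed fibroblast markers were at 24900 and 29100 CPM in O1 and O2 and at 42400 and 33900 CPM in O3 and O4. Col1a1 and Col1a2, with MEF means of 12540 and 13420 CPM, held most of that sum. What the Y-linked division or the fibroblast markers had to do with the levels of Cav1, Cavin2 and the other caveolae genes was not tested.

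**Figure D5:**
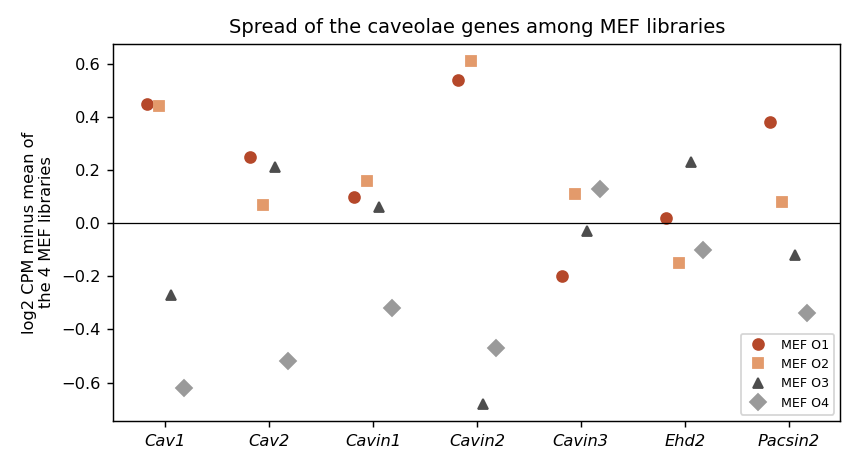
Log2 CPM of each caveolae gene in each MEF library, minus the mean of the 4 MEF libraries. Cavin2 and Cav1 are above 0 in O1 and O2 and below 0 in O3 and O4, with Cavin2 running from -0.68 to 0.61, whereas Cavin3 stays between -0.20 and 0.13.

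The relatives of these genes and 3 lists of other membrane genes are given next, to be read against the 25.0% of all genes tested that were higher and the 22.8% that were lower in MEFs. Of 7 relatives, 6 were tested, of which 3 were higher in MEFs, 1 was lower and 2 were not called, with a median log2 fold change of 0.91. Cav3, the caveolin of striated muscle, was not tested, with 0 to 6 counts in a library. Cavin4, the muscle cavin, was not called, at 1.11 on the log2 scale (adjusted p = 0.0788, edgeR). Of the EHD family, which shares an ATPase fold and acts on endosomes and tubules, Ehd3 was at 2.72 (adjusted p = 0.000119), Ehd1 at 0.84 (adjusted p = 0.00207) and Ehd4 at 0.13 (adjusted p = 0.627). Ehd4 changed sign, to -0.15, with scaling by library size alone. Pacsin1, the neuronal form of the family, was lower in MEFs, at 0.954 to 1.73 CPM against 20.1 to 26.7 CPM in mESCs (log2 fold change -3.98, adjusted p = 2.18e-06, edgeR). Pacsin3, the muscle form, was at 0.97 (adjusted p = 0.0198), a call lost with scaling by library size alone (0.69, adjusted p = 0.0819) and without O4 (adjusted p = 0.0517), Y2 (adjusted p = 0.0666) or Y3 (adjusted p = 0.0597). The 3 PACSIN genes thus went in different directions: Pacsin1 lower, Pacsin3 higher by a call that depended on scaling, and Pacsin2 not called.

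Of 18 partners and residents of caveolae, 14 were tested, and 7 were higher and 1 lower in MEFs, with a median log2 fold change of 1.22. The largest rises were in Ror1, a receptor that binds caveolar proteins (4.54, adjusted p = 9.35e-05), and Prkca, a protein kinase C (2.94, adjusted p = 6.37e-05). The mean of Ror1 in mESCs was 0.424 CPM, near the floor, so the size of its rise is uncertain. It ran from 4.09 to 5.11 when a library was left out. Plvap, which forms the diaphragm of endothelial caveolae, was lower (-2.68, adjusted p = 0.00885, edgeR). Dnm2, the dynamin that cuts vesicles from the membrane, was at 0.38 (adjusted p = 0.15). Of 8 flotillin and stomatin genes, which mark other membrane domains, 7 were tested. Of these, 3 were higher in MEFs and 1 was lower, where 25.0% and 22.8% of all genes tested were. Their median log2 fold change was 0.66, and whether so few genes differ from those shares was not tested. The 2 largest rises were Flot1 (1.52, adjusted p = 0.000194) and Stom (1.34, adjusted p = 0.00403), and Stoml1 was lower (-1.56, adjusted p = 0.00197). Of 32 genes of clathrin endocytosis, another route into the cell, 31 were tested and 13 were higher and 3 lower in MEFs (median 0.46). Bin1 (3.33, adjusted p = 4e-06) and Synj2 (2.18, adjusted p = 0.00167) rose most, and Amph (-4.61, adjusted p = 0.000826) and Fcho1 (-3.90, adjusted p = 0.000336) had the lowest fitted values. Both of the latter rested on few counts in MEFs, 0 to 4 in a library for Amph (32 to 84 in mESCs) and 1 to 3 for Fcho1 (23 to 42 in mESCs), so their mean MEF levels were under the floor and the sizes are uncertain. Without O4, Amph was at -5.30. Bin1 and Amph encode related membrane-bending BAR proteins and went in opposite directions.

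The genes whose pattern over the 7 libraries was most like that of Cav1, by the root mean square difference of log2CPM deviations, were Sorbs2 (0.24), Mcub (0.303), Adam12 (0.314), Slc25a24 (0.318) and Ccnd2 (0.338). By the same measure Cavin1 was at place 43 from Cav1 (0.512) and Cav2, its chromosomal neighbour, at place 606 (1.288). For Cavin1 the nearest genes were Ncam1 (0.146), Mylk (0.185), Thy1 (0.191), Nr2f2 (0.201) and Hoxc10 (0.217). None of the other caveolae genes was among the nearest 5 of either gene. The measure runs over all 7 libraries, so the size of the difference between MEFs and mESCs enters it. The 5 genes nearest to Cavin1 had log2 fold changes of 5.38 to 5.82, against 5.40 for Cavin1 and 3.70 for Cav2. Those nearest to Cav1 had 5.83 (Sorbs2) to 8.16 (Mcub), against 5.98 for Cav1. Log2CPM carried a prior count of 2, which shrinks differences of genes with few counts. A near place therefore does not mean a like fitted fold change. These places therefore do not isolate variation within a cell type.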

How the data were processed

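RNA-seq gene counts of MEFs (4 libraries) and mESCs (3 libraries) were used. ATAC-seq was not analysed here. RNA was taken to be primed at poly(A) with molecular identifiers, a priming that the paper's methods do not state. The authors aligned reads to GRCm38 (STAR 2.4.2a per the submitters' processing notes) and counted them per gene with featureCounts, and they deposited the counts without normalization. Library totals ran from 6528643 to 11441278 counts. Unused columns with values of single samples numbered 0. Libraries of 1 cell type differed beyond sampling noise (chi-square per degree of freedom 15.6 to 31.1), so none was merged.

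In R 4.3.3, edgeR 4.0.16 (with limma 3.58.1) was used for TMM scaling, filtering by filterByExpr and quasi-likelihood tests, in 1 fit of the 7 libraries with no covariate, called at an adjusted p of 0.05. The SE is the log2 fold change divided by the t quantile of its p. Log2CPM used a prior count of 2. Ratios of counts, with 0.5 added to each count for the log2 values, were tested with SciPy 1.17.1 by exact permutation over 35 divisions, two-sided with the smaller tail doubled; the form on the absolute difference was added after its values were seen. DESeq2 1.42.0, other scalings and filters, a fold test of 2 and leaving out each library were alternatives. The code was tested on simulated data.

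Members and lists were chosen with earlier results of these data known. Named were the 7 genes, their relatives, up to 2 called genes each way per other list with the largest changes, Dnm2, the markers Col1a1, Pou5f1, Cdh5 and Adipoq, and the 5 genes nearest to Cav1 and to Cavin1.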

Additional observations from a re-analysis of the deposited data

How the results depend on the processing

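The 6 calls among the 7 caveolae genes were kept under all 13 alternatives of the fit, with log2 fold changes of 5.69 to 6.24 for Cav1, 3.41 to 3.86 for Cav2, 5.11 to 5.55 for Cavin1, 5.01 to 5.59 for Cavin2, 7.03 to 7.63 for Cavin3 and 4.12 to 4.69 for Ehd2. Pacsin2 ran from 0.10 to 0.69, with no adjusted p under 0.0871. With a test against a fold change of 2, 1 relative, 1 flotillin or stomatin gene and 5 clathrin genes were higher in MEFs, and 0 flotillin or stomatin genes were lower. DESeq2, its size factors and library size alone each gave 2 lower flotillin or stomatin genes, and leaving out a library gave 1 to 2. Ehd4 turned to -0.15 with library size alone and ran from -0.01 to 0.23 when a library was left out. The log2 ratio of Cavin2 to Cavin1 ran from -0.43 to 0.04 when a library was left out. For Cav2 the mESC level was 9.27% of the MEF level with library totals. Per kb, 4 of the 7 genes kept their place in the mESC order. The permutation p on the absolute difference, added after the data were seen, moved 4 ratios past the threshold (p = 0.0286 in place of 0.0571) with their sizes as before (-2.31, 1.92, -1.42 and -5.53); the design did not fix the form of the two-sided p. Scaling by library size alone leaves out the TMM factors, which were 0.8971 to 0.9632 in MEF libraries and 1.092 to 1.136 in mESC libraries. Beyond this scaling and the form of the p, the cause of the shifts was not tested. In mESCs, Cav2 rested on 7 to 10 counts a library, which limits its precision. No paired analysis was possible because no source ties the number in a count column to a sample, so the replicate block was not run.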
